A study of Mus musculus with 4 samples.

Results

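The bone morphogenetic protein (BMP) and transforming growth factor beta (TGF-beta) family was examined in hair cells of the mouse cochlea, the sensory receptor cells of hearing. Members were the genes whose symbol begins with Bmp, Tgfb, Acvr, Gdf and a digit, Inha or Inhb, or Smad and a digit, together with Nog, Chrd, Grem1, Fst and Mstn, which gave 59 of 23996 genes. By role these were 29 ligands, 12 receptors, 8 Smads, 5 secreted antagonists and 5 other proteins that match by name. The Id genes, which are targets of the pathway, did not belong to the set.

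New hair cells were sorted as cells positive for both eGFP and tdTomato, and original hair cells as cells positive for eGFP alone. Each group had 2 libraries, made from total RNA of the cochlear epithelium on postnatal day 7. The mice carried 4 alleles on a C57BL/6 background: Sox2-CreER, a tamoxifen-activated Cre recombinase, the Cre-dependent Atoh1 transgene Atoh1-HA, the reporter Atoh1-eGFP and the Cre-dependent reporter Rosa26-tdTomato. Tamoxifen was injected on postnatal day 3 at 0.20 mg per g of body weight, and the study's control mice received corn oil. The labels do not say which injection the mice that gave the original hair cells had received, nor whether the 2 libraries of a group came from separate animals or pools. Sox2 marks supporting cells of the cochlea at this age. New hair cells were those in which Cre had switched on tdTomato, while Atoh1 from the Cre-dependent transgene was not part of the sort. The comparison set these cells, taken as induced, against cells with eGFP alone, taken as hair cells of normal development.

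Ligands of the family are secreted dimers that bring type II and type I receptors together in one complex, where the type II receptor switches on the type I receptor. The type I receptor then phosphorylates receptor Smads, which enter the nucleus with the common Smad, Smad4. BMP ligands act through Smad1, Smad5 and Smad9, and TGF-beta and activin ligands through Smad2 and Smad3. Inhibitory Smads and secreted antagonists such as noggin and chordin hold the pathway back. In the developing cochlea, BMP signalling is known for its part in patterning the sensory epithelium.

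The values are FPKM, fragments scaled to transcript length and to the number of mapped fragments, deposited by the authors as 1 value per gene and group. No SD or interval can be given, depth per library is unknown, and the spread between libraries could not be seen for any difference below. FPKM summed to 244225 in new and 2165833 in original hair cells, an 8.87-fold difference that lay in the highly expressed genes. At the 95th percentile of tested genes FPKM was 99.4 in new and 854 in original hair cells, while at the 25th percentile it was 1.50 in new and 1.43 in original hair cells. Differences are therefore given on the deposited scale, and every family gene that was lower in new hair cells there but higher with equal sums is named in the account of the scalings. All 10 hair cell markers reached at least 1 FPKM in each group, but each had less FPKM in new hair cells, where they summed to 860 FPKM against 42197 FPKM in original hair cells. Under each of the other 3 scalings 9 of the 10 were lower. Of 10 supporting cell markers 7 had the higher FPKM in new hair cells. The 10 together summed to 4692 FPKM in new and 15426 FPKM in original hair cells. Of these sums S100a1 held 3617 and 15179 FPKM, so on the deposited scale their direction rested on that 1 gene. Of the 9 supporting cell markers that were tested, 7 were higher in new hair cells as deposited. All 9 were higher after quantile normalization or with equal sums.

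Markers of other cells the sort could hold differed between groups as well. The 10 mesenchyme markers summed to 417 FPKM in new and 2130 FPKM in original hair cells, 7 being lower in new hair cells, and none was at 0. Of 8 spiral ganglion neuron markers 6 were lower in new hair cells (sums of 74.2 and 3521 FPKM in new and original), with Thy1 and Prph at 0 in new and Ntrk3 at 0 in original hair cells. Of 7 Schwann cell and glia markers 6 were lower in new hair cells (sums of 13.8 FPKM in new and 998 FPKM in original), and none was at 0. The 6 macrophage and immune cell markers summed to 73.0 and 3.82 FPKM in new and original, with 2 of 6 higher in new hair cells, Ptprc at 0 in both groups and Aif1 at 0 in new hair cells. The 5 endothelial markers summed to 0.0109 FPKM in new and 0.395 FPKM in original, with Kdr and Cldn5 at 0 in both groups, Pecam1 and Tek at 0 in new and Cdh5 at 0 in original hair cells. Of 4 red blood cell markers 3 were in the table, with Hbb-bt and Hba-a2 at 0 in both groups and Hbb-bs at 0 in new hair cells. These directions are those of the deposited scale. With equal sums the mesenchyme sum turned to 3702 FPKM in new against 2130 FPKM in original hair cells, and of 4 tested neuron markers 3 were higher in new hair cells, where 1 was as deposited. The sums of neuron, Schwann cell and endothelial markers were still lower in new hair cells with equal sums. Single genes held most of the sums. In original hair cells these were Nefl at 3214 FPKM for neurons, Cnp at 983 FPKM for Schwann cells and Otor at 1383 FPKM for mesenchyme. In new hair cells Gata3 held 66.9 FPKM of the neuron sum, Lum 375 FPKM of the mesenchyme sum and Tyrobp 71.7 FPKM of the immune sum. Gata3 was also among the neuron markers that turned to higher with equal sums. A sum therefore does not stand for all markers of a cell type. The part of such cells in the values below was not tested, and in sorted bulk samples fewer cells of a type and less RNA per cell cannot be told apart.

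In new hair cells the most abundant family gene was the ligand Tgfb2 at 22.3 FPKM, followed by Bmp6 at 10.5, the protease gene Bmp1 at 8.90, Inhba at 6.62 and the receptor Tgfbr1 at 6.13 FPKM. In original hair cells the order was led by Bmp2k, a kinase gene, at 254 FPKM, the antagonist Chrd at 79.6, the receptor Bmpr2 at 42.1 and Smad4 at 17.3 FPKM. At least 1 FPKM was reached by 19 of 59 members (32.2%) in new and 12 of 59 (20.3%) in original hair cells, where the shares over all genes were 32.5% and 32.3%. No family gene passed an adjusted p of 0.05 in the Benjamini-Hochberg adjustment of p-values from the authors' deposited table over 9026 tested genes, and neither did any other gene (0.0% of tested genes). The smallest adjusted p among the members was 0.526.

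**Figure D1:**
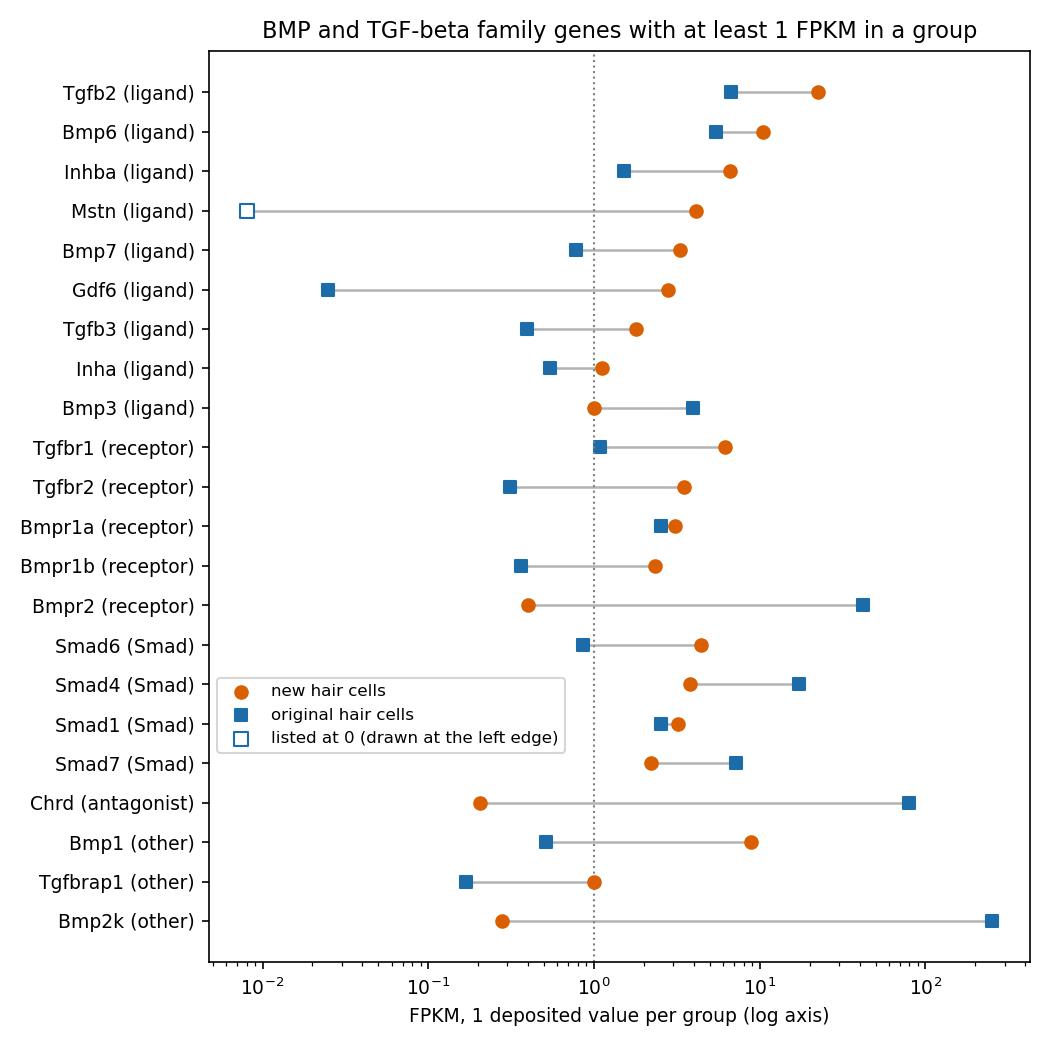
FPKM on a log axis in new (circles) and original hair cells (squares) for the 22 family genes with at least 1 FPKM in a group, ordered by role and by the level in new hair cells. Circles lie right of squares for most ligands, with Tgfb2 at 22.3 FPKM in new and 6.75 FPKM in original. All 9 ligands drawn reached 1 FPKM in new but only 4 in original hair cells, so the filter fixed the direction of the others. Circles lie far left of squares for Bmpr2, Chrd and Bmp2k, which reached 1 FPKM in original hair cells alone.

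Tested genes were those with at least 1 FPKM in a group and above 0 in both, and 21 members were among them. On the log2(FPKM + 1) scale 10 members were higher in new hair cells by 2-fold or more and 6 were lower by as much, against 19.9% and 34.9% of all tested genes. These counts rest partly on the filter, because 9 of the 21 reached 1 FPKM in new hair cells alone and 3 in original hair cells alone, so their direction was fixed by being included. Of the 9 members with at least 1 FPKM in both groups, 3 were higher in new hair cells by 2-fold or more, 3 lower by as much and 3 neither, against 17.2% higher and 36.4% lower among the 6367 such genes of the whole table. Those higher were Tgfb2, Inhba and Tgfbr1, and those lower were Bmp3, Smad4 and Smad7, which turned to higher when both columns were scaled to equal sums. With no filter at all, 30 of 59 members had the higher FPKM in new and 23 in original hair cells, and 6 were at 0 in both. Over all rows, 36.3% had the higher FPKM in new and 36.7% in original hair cells. The authors' deposited table gave 1 tested member that was higher in new hair cells, Bmp1, an unadjusted p under 0.05, and likewise 2 that were lower, Bmp2k and Bmpr2, against 0.554% and 8.83% of all tested genes in these directions. Bmp1 reached 1 FPKM in new hair cells alone, and Bmp2k and Bmpr2 in original hair cells alone, so the filter fixed these directions too.

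Of the 3 TGF-beta ligands, Tgfb2 and Tgfb3 were higher in new hair cells. Tgfb2 (mm10, chromosome 1, 186623186 to 186705992) stood at 22.3 FPKM in new and 6.75 FPKM in original hair cells, a ratio of 3.31, with p = 0.351 in the authors' deposited table. Tgfb2 is the isoform known for its part in inner ear development. Tgfb3 stood at 1.80 FPKM in new and 0.394 FPKM in original hair cells, a ratio of 4.57. Tgfb1, the isoform best known from immune cells, was close to 0 in both groups, at 0.0142 FPKM in new and 0.000875 FPKM in original hair cells. The make-up of the 3 isoforms was similar in both groups, since Tgfb2 held 92.5% of their summed FPKM in new and 94.5% in original hair cells. Such a share within a group is unmoved where a column is multiplied by a constant, as with trimmed-mean scaling or equal sums, but not under quantile normalization.

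BMP ligands went both ways. Bmp6 (chromosome 13, 38345716 to 38499728) stood at 10.5 FPKM in new and 5.47 FPKM in original hair cells, a ratio of 1.92, with p = 0.656 in the authors' deposited table. Bmp7, a ligand of broad use in epithelia, stood at 3.28 FPKM in new and 0.775 FPKM in original hair cells. Bmp3, an atypical ligand known to oppose other BMPs, was lower at 1.01 FPKM in new against 3.97 FPKM in original hair cells, a log2(FPKM + 1) difference of -1.31 that turned to 1.00 with equal sums. Bmp6 held 68.0% of the summed FPKM of the 10 BMP ligands in new and 47.6% in original hair cells, while Bmp3 held 6.50% and 34.5%. Bmp4, which marks the lateral border of the sensory epithelium in the embryo, and Bmp2 were under 1 FPKM in both groups, at 0.233 and 0.308 FPKM in new and 0.296 and 0.212 FPKM in original hair cells. Bmp5, Bmp8a and Bmp10 were at 0 in both groups.

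Activin and inhibin subunits were led by Inhba, which encodes the subunit of activin A. Inhba (chromosome 13, 16014475 to 16027211) stood at 6.62 FPKM in new and 1.52 FPKM in original hair cells, a ratio of 4.36, with p = 0.244 in the authors' deposited table. Inha, the subunit that turns an activin into an inhibin, stood at 1.12 and 0.544 FPKM in new and original hair cells. Inhbb was at 0 in new and at 0.437 FPKM in original hair cells. Inhba made up 85.2% of the subunits' summed FPKM in new and 60.7% in original hair cells.

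Growth differentiation factors were low apart from Mstn and Gdf6 in new hair cells. Mstn, which encodes myostatin, a brake on muscle growth, stood at 4.11 FPKM in new hair cells and was listed at 0 in original hair cells, with p = 0.00055 in the authors' deposited table. That p lies outside the adjustment over tested genes, which asked for a value above 0 in both groups. Of the 35 genes listed at 0 in original and at 1 FPKM or more in new hair cells, 54.3% had a p under 0.05 before adjustment in the authors' deposited table, and 4, Mstn among them, had a p of 0.00055 or less. Gdf6 stood at 2.80 FPKM in new and 0.0249 FPKM in original hair cells, with p = 0.213 in the authors' deposited table. Gdf10 went the other way, at 0 in new and 0.434 FPKM in original hair cells. The other 8 factors were under 1 FPKM in both groups, the highest being Gdf1 at 0.977 FPKM in new hair cells.

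In sum the 29 ligands reached 55.7 FPKM in new and 21.7 FPKM in original hair cells. Of the 29, 18 (62.1%) had the higher FPKM in new and 6 (20.7%) in original hair cells, against 36.3% and 36.7% of all genes. Since 20 of the ligands were under 1 FPKM in both groups, part of these directions rest on values near 0. Tgfb2 alone held 40.1% of the ligand sum in new and 31.1% in original hair cells. Bmp6 followed with 18.9% in new and 25.2% in original hair cells.

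**Figure D2:**
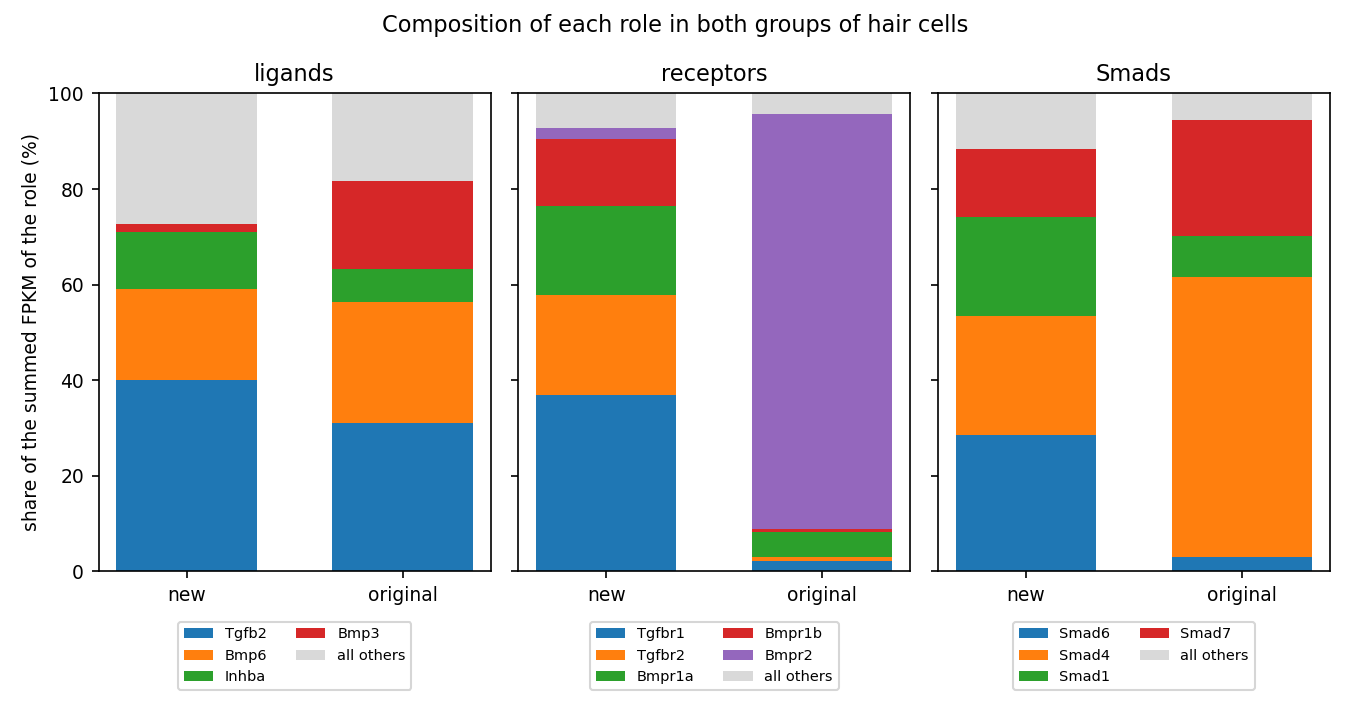
Share of the summed FPKM of each role held by its leading genes, in percent, in new (left bar) and original hair cells (right bar) for 29 ligands, 12 receptors and 8 Smads. Bmpr2 fills 86.8% of the receptor bar in original hair cells and 2.40% in new hair cells, where Tgfbr1 holds 36.9%.

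The receptors with the highest FPKM differed between the groups. Tgfbr1, the type I receptor for TGF-beta (chromosome 4, 47353305 to 47414924), stood at 6.13 FPKM in new and 1.09 FPKM in original hair cells, a ratio of 5.61, with p = 0.205 in the authors' deposited table. Its partner Tgfbr2, the type II receptor for TGF-beta (chromosome 9, 116087695 to 116175363), stood at 3.50 FPKM in new and 0.311 FPKM in original hair cells, a ratio of 11.3 and a p of 0.143 in the authors' deposited table. Both stayed higher in new hair cells under each of the 3 other scalings. These scalings also raised the median of all tested genes, from -0.21 as deposited to 0.06, 0.26 and 2.53. Tgfbr2 reached 1 FPKM in new hair cells alone, so the filter fixed its direction as deposited. Tgfbr3, the co-receptor betaglycan, was low in both groups, at 0.0505 FPKM in new and 0.311 FPKM in original hair cells.

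The BMP receptors went both ways. Bmpr2, the type II receptor for BMPs (chromosome 1, 59764279 to 59878081), stood at 0.400 FPKM in new and 42.1 FPKM in original hair cells, 105-fold lower in new hair cells, with p = 0.0274 in the authors' deposited table. Its Benjamini-Hochberg adjusted p was 0.526. Bmpr2 was lower in new hair cells under all 4 scalings. As deposited that direction was fixed by the filter, since Bmpr2 reached 1 FPKM in original hair cells alone. Bmpr1a, a type I receptor, stood at 3.08 and 2.54 FPKM in new and original hair cells, within 2-fold on the deposited scale. Bmpr1b, another type I receptor for BMPs, stood at 2.33 FPKM in new and 0.364 FPKM in original hair cells, a ratio of 6.40. Within the type I receptors Tgfbr1 held 50.2% of the summed FPKM in new and 23.5% in original hair cells, and Bmpr1a 25.2% and 54.5%. Within the 4 type II receptors Tgfbr2 held 80.0% in new and 0.715% in original hair cells, against 9.14% and 96.7% for Bmpr2.

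Receptors named for activin were under 1 FPKM throughout, among them Acvr1, which is also a type I receptor for BMPs. Acvr1 stood at 0.499 and 0.621 FPKM, Acvr2b at 0.387 and 0.526 FPKM and Acvr2a at 0.0883 and 0.595 FPKM in new and original hair cells. Acvr1b was at 0.172 FPKM in new and at 0 in original hair cells, and Acvrl1, a receptor known from blood vessels, at 0 in new and 0.0270 FPKM in original hair cells. The deposited p was 1 for 31 of 59 members (52.5%) and for 55.0% of all genes in the authors' deposited table. All receptors together summed to 16.6 FPKM in new and 48.5 FPKM in original hair cells. Without Bmpr2 the sums were 16.2 FPKM in new and 6.40 FPKM in original hair cells, so on the deposited scale the direction of the receptor total rested on that 1 gene. It rested on the scaling too, since with the column of new hair cells multiplied to equal sums the total was 148 FPKM in new and 48.5 FPKM in original hair cells with Bmpr2 included.

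Promoter sequences of both receptors are shown because the genes stood apart in opposite directions. They are the RefSeq windows of GRCm38.p6, the assembly behind mm10, from 250 bases before to 50 bases after the gene's start. Capitals mark GGCGCC, letters that BMP-activated Smads are known to bind, which read the same on both strands and are held by 11.9% of the 32851 windows in the table. The window of Tgfbr1, the nearer of 2 in the table to the start of its locus, is chr4:47352972-47353271 on the plus strand and that of Bmpr2 is chr1:59764029-59764328 on the plus strand.
Tgfbr1: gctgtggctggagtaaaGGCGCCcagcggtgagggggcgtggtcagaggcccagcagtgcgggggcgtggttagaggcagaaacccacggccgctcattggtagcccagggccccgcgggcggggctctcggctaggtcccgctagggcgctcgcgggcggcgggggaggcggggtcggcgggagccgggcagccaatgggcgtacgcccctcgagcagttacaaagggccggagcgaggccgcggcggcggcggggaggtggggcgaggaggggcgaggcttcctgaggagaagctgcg
Bmpr2: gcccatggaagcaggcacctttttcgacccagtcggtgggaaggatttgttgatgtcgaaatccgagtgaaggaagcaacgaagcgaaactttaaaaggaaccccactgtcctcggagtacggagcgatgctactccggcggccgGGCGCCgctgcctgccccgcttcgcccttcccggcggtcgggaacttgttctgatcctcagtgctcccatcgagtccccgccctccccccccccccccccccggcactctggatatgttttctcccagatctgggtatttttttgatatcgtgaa
Each window shown held the letters 1 time, and the second Tgfbr1 window in the table did not hold them. Whether the letters go with a direction was not tested. A match of letters is a description and not a site shown to be bound.

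Smads differed by class. Smad4, the common partner, stood at 3.82 FPKM in new and 17.3 FPKM in original hair cells, 4.53-fold lower in new hair cells, with p = 0.211 in the authors' deposited table. Scaling to equal sums turned its log2(FPKM + 1) difference of -1.93 to 0.93. Smad1, the most abundant BMP receptor Smad, stood at 3.21 and 2.52 FPKM in new and original hair cells, with p = 0.848 in the authors' deposited table. Its relatives were low in both groups, Smad5 at 0.880 FPKM in new and 0.346 FPKM in original and Smad9 at 0.00745 FPKM in new and 0.0355 FPKM in original hair cells. The TGF-beta receptor Smads were low too, with Smad2 at 0.414 and 0.529 FPKM and Smad3 at 0.488 and 0.707 FPKM in new and original hair cells.

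The inhibitory Smads went in opposite directions. Smad6, which acts mainly on BMP signals (chromosome 9, 63953076 to 64022059), stood at 4.42 FPKM in new and 0.859 FPKM in original hair cells, a ratio of 5.14, with p = 0.150 in the authors' deposited table. Smad7, which acts on both branches, stood at 2.19 FPKM in new and 7.16 FPKM in original hair cells, 3.27-fold lower in new hair cells and turned to higher with equal sums. The ratio of Smad6 to Smad7 within a group, which multiplying a column by a constant leaves as it is, was 2.01 in new and 0.120 in original hair cells. Of the summed FPKM of the 8 Smads, Smad6 held 28.6% in new and 2.91% in original hair cells, Smad7 14.2% and 24.3%, and Smad4 24.8% and 58.7%. No replicate error can be set beside these shares.

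The promoter of Smad6 is shown because the gene is itself a known target of the pathway. In its RefSeq window, chr9:64022010-64022309 on the minus strand, capitals mark GTCTAGAC, the palindrome of the Smad-binding element, which reads the same on both strands.
Smad6: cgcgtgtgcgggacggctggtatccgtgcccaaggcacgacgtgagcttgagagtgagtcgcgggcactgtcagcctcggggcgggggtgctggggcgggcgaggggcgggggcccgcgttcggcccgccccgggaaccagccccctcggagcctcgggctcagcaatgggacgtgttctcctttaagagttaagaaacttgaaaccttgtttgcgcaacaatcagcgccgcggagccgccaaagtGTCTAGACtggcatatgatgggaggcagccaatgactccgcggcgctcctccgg
The palindrome was found in 0.21% of the 32851 windows, and Smad6 was the only one of 15 family genes with at least 1 FPKM and a window in the table to hold it. This motif was 1 of 4 searched, and nothing about binding follows from the match.

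All 5 secreted antagonists were under 1 FPKM in new hair cells. Chrd, which encodes chordin, a protein that traps BMP ligands (chromosome 16, 20724454 to 20742384), stood at 0.206 FPKM in new and 79.6 FPKM in original hair cells, 386-fold lower in new hair cells, yet with p = 0.426 in the authors' deposited table. Its row shares the locus with Thpo, which lies on the opposite strand and was at 0 in new and 0.0293 FPKM in original hair cells. In the GENCODE annotation 3.82% of the exonic bases of Chrd overlap those of Thpo. There Chrd itself runs from 20733127 to 20742384, so the position given is that of the shared locus. Nog, encoding noggin, stood at 0.0159 and 0.151 FPKM, and Bmper at 0.0607 and 0.0161 FPKM in new and original hair cells. Fst, encoding the activin-binding protein follistatin, stood at 0.463 FPKM in new hair cells and was listed at 0 in original hair cells. Grem1 was at 0 in both groups.

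Of the other proteins, Bmp1 and Bmp2k stood far apart. Bmp1 encodes a secreted metalloprotease that is no ligand despite its name, and which cleaves chordin and procollagens. It stood at 8.90 FPKM in new and 0.516 FPKM in original hair cells (chromosome 14, 70474555 to 70520260), a ratio of 17.2, with p = 0.044 in the authors' deposited table. Adjusted by Benjamini-Hochberg, its p was 0.526. Bmp2k, a kinase named for its induction by Bmp2 (chromosome 5, 96997689 to 97111596), stood at 0.279 FPKM in new and 254 FPKM in original hair cells, 911-fold lower in new hair cells. The p of Bmp2k was 0.00945 in the authors' deposited table and 0.526 after Benjamini-Hochberg adjustment over tested genes. Its row shares the locus with Paqr3 on the opposite strand, at 0.501 FPKM in new and 0.0480 FPKM in original hair cells. Of the exonic bases of Bmp2k 13.97% overlap those of Paqr3. In the GENCODE annotation Bmp2k itself ends at 97091867, so the end given is that of the shared locus. Tgfbrap1, which binds TGF-beta receptors, stood at 1.00 FPKM in new and 0.168 FPKM in original, Tgfb1i1 at 0.189 FPKM in new and 0.408 FPKM in original, and the matrix gene Tgfbi at 0 in new and 0.236 FPKM in original hair cells.

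Promoters of Chrd and Bmp2k are shown as those of the members farthest below in new hair cells. Their RefSeq windows are chr16:20732877-20733176 and chr5:96997439-96997738, both on the plus strand. Capitals mark GGCGCC and the E-box CAGCTG, a form of the motif bound by factors of the Atoh1 class, which reads the same on both strands.
Chrd: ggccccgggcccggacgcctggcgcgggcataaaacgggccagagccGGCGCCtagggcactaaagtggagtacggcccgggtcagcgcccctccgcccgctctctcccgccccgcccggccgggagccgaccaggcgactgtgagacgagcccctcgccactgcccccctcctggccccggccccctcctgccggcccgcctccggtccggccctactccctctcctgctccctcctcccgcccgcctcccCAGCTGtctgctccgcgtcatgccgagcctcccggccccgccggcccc
Bmp2k: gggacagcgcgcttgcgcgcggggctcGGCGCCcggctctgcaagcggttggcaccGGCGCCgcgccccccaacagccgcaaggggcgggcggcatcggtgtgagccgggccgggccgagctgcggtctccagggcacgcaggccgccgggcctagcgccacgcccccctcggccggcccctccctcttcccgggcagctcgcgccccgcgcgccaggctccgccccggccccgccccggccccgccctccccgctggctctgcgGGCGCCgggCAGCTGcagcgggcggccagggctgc
Both windows held CAGCTG, as did 16.3% of all windows and those of Bmpr1b, Inha, Tgfbr2 and Tgfbrap1 among the 15 genes searched. Of these, Bmpr1b, Inha, Tgfbr2 and Tgfbrap1 were higher in new hair cells and reached 1 FPKM there alone. Chrd and Bmp2k reached it in original hair cells alone, so the filter fixed the direction of each as deposited. Whether the letters go with a direction was not tested. The related E-box CAGATG, searched on both strands, was held by 17.15% of all windows and, among the 15 genes, by Bmpr1b.

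Ranks give a view that does not depend on the sums. Each gene was placed by the share of the 17529 genes above 0 in at least 1 group that had a lower FPKM in the same cells. Tgfb2 lay at percentile 91.9 in new and 77.2 in original hair cells, Bmp1 at 84.7 and 45.8, Tgfbr1 at 80.8 and 57.1, and Tgfbr2 at 73.6 and 38.4. Bmpr2 lay at percentile 43.4 in new and 88.3 in original hair cells, Chrd at 36.2 and 90.9, and Bmp2k at 39.2 and 94.9. Smad4 was in the upper part of the range in both groups, at 74.9 in new and 83.8 in original hair cells. Smad1 and Bmpr1a lay nearer to the same place in both, at 72.5 and 67.7 in new and original for Smad1 and 71.9 and 67.8 in new and original for Bmpr1a.

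**Figure D3:**
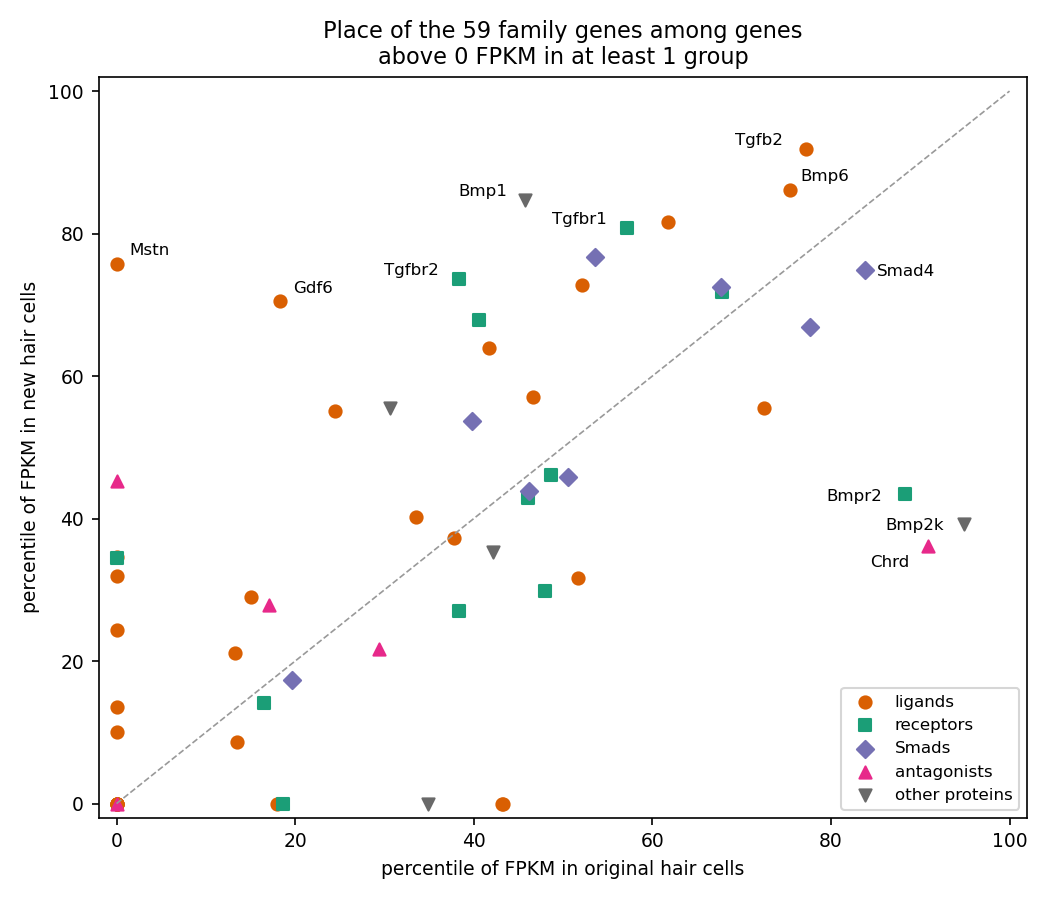
Percentile of FPKM in new (vertical axis) against original hair cells (horizontal axis) for the 59 family genes, coloured by role, with the dashed line where both are equal. Bmpr2, Bmp2k and Chrd lie far below the line, while Tgfb2, Bmp1, Tgfbr1 and Tgfbr2 lie above it.

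Under 4 scalings of the columns, as deposited, trimmed-mean scaling, quantile normalization and equal sums, 15 of the 21 tested members were higher in new hair cells each time, against 45.0% of all tested genes. Bmpr2, Chrd and Bmp2k were lower each time, as were 22.1% of all tested genes. The 9 members that passed the filter through new hair cells alone could not be lower as deposited, so the count of 15 does not speak for the family. Likewise Bmpr2, Chrd and Bmp2k passed it through original hair cells alone and could not be higher as deposited. Of the 9 members with at least 1 FPKM in both groups, 6 were higher each time and none lower, where the shares over all such genes were 41.8% and 20.7%. Of the tested members Bmp3, Smad4 and Smad7 were lower on the deposited scale and turned to higher with equal sums. The median of all tested genes was -0.21 on the deposited scale, 0.06 with trimmed-mean scaling, 0.26 after quantile normalization and 2.53 at equal sums. For the members at 1 FPKM in both groups the median was 0.26, 0.53, 0.42 and 3.07 under these scalings in turn, and for all such genes -0.27, -0.0016, 0.27 and 2.50. Among the members that were not tested, 11 more turned to higher in new hair cells with equal sums, namely Bmp4, Bmp8b, Acvr1, Acvr1c, Acvr2a, Acvr2b, Tgfbr3, Smad2, Smad3, Smad9 and Tgfb1i1. With equal sums Bmp3, Smad4 and Smad7, at 1.00, 0.93 and 1.33, were still below that median of 2.53.

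**Figure D4:**
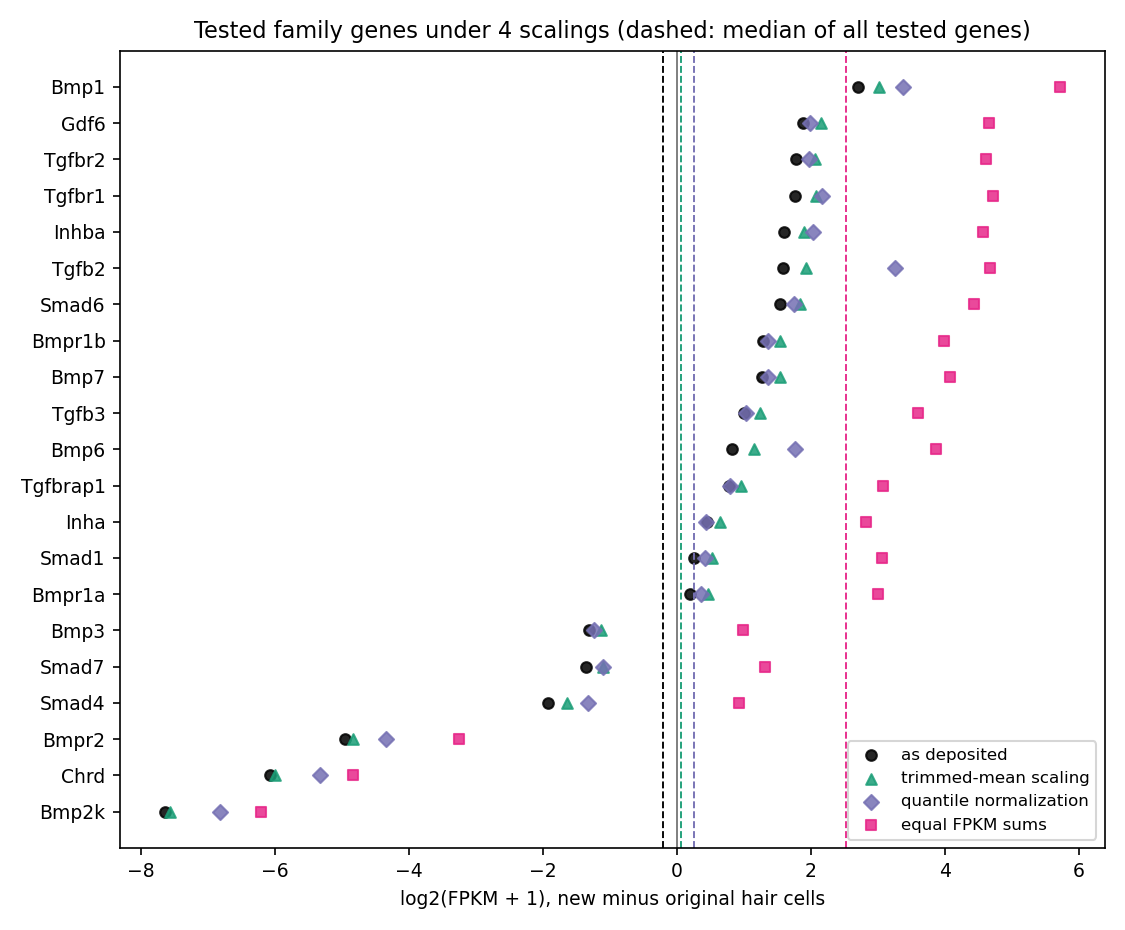
Difference in log2(FPKM + 1), new minus original hair cells, for the 21 tested family genes under 4 scalings, with the median of all tested genes as a dashed line in the same colour. Bmpr2, Chrd and Bmp2k lie left of 0 under each scaling. With equal sums Bmp3, Smad4 and Smad7 lie right of 0 but left of the dashed line at 2.53. Of the 21 genes, 9 passed the filter through new hair cells alone, and Bmpr2, Chrd and Bmp2k through original hair cells alone.

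Genes of the pathway outside the set were taken from a list of 78 targets, regulators, co-receptors and processing enzymes. Of these 33 were tested, 7 being higher in new hair cells by 2-fold or more and 13 lower by as much, against 19.9% and 34.9% of all tested genes. Only 21 of the 33 reached 1 FPKM in both groups, so the filter fixed the direction of the others as deposited, Rgma among them. None of the 33 passed an adjusted p of 0.05. The list median was -0.09, where that of all tested genes was -0.21. Farthest above among genes with at least 5 FPKM in a group were Tgif2, a repressor that binds Smads, at 15.9 FPKM in new and 1.12 FPKM in original hair cells, Id1 at 459 and 66.6 FPKM, and Hgs, an endosomal sorting protein, at 11.5 and 1.35 FPKM. Farthest below were Ski, a repressor of Smads, at 1.47 FPKM in new and 185 FPKM in original hair cells, with p = 0.0141 in the authors' deposited table, Rgma, a BMP co-receptor, at 0.528 and 45.0 FPKM, and Id4 at 27.7 and 468 FPKM. The Id genes, targets of BMP signals that hold back bHLH factors such as Atoh1, were split, with Id1, Id2 and Id3 higher and Id4 lower in new hair cells under all 4 scalings.

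Extracellular regulators of the list had 10 tested genes, of which 1 was higher in new hair cells by 2-fold or more and 6 lower by as much, against 19.9% and 34.9% of all tested genes. Only 7 of the 10 reached 1 FPKM in both groups. Ltbp4, Sostdc1 and Dand5, which are among the 6, reached it in original hair cells alone, so the filter fixed their direction as deposited. With equal sums 4 of the 10, Twsg1, Thbs1, Crim1 and Dcn, turned to higher in new hair cells. Fstl1, a secreted follistatin-like protein, stood at 56.1 FPKM in new and 18.9 FPKM in original hair cells. Ltbp3, which anchors latent TGF-beta in the matrix, stood at 2.67 FPKM in new and 57.8 FPKM in original hair cells, with p = 0.342 in the authors' deposited table. Twsg1, a partner of chordin, stood at 5.49 FPKM in new and 18.6 FPKM in original hair cells. Among intracellular regulators, Pmepa1, a feedback inhibitor that TGF-beta induces, stood at 6.28 FPKM in new and 0.729 FPKM in original hair cells, and Ppm1a, a phosphatase of receptor Smads, at 1.91 and 43.6 FPKM. Pmepa1 reached 1 FPKM in new hair cells alone, so the filter fixed its direction as deposited. In the authors' deposited table the p of Ppm1a was 0.0427. Pcsk6, a protease that cuts ligand precursors, stood at 4.49 FPKM in new and 1.48 FPKM in original hair cells. Lrrc32, which holds latent TGF-beta at the cell surface, was listed at 0 in new and stood at 2.09 FPKM in original hair cells, with p = 0.00065 in the authors' deposited table. Of 124 genes listed at 0 in new and at 1 FPKM or more in original hair cells, 75.0% had a p under 0.05 before adjustment in the authors' deposited table.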

How the data were processed

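RNA was sequenced from 4 libraries, 2 per group, with a SMART-Seq v4 kit for very small amounts of RNA, per the labels' protocols. The submitters' processing notes name CASAVA 1.8, Trimmomatic, TopHat and the build mm10. Neither the program that gave the expression values nor the test that gave the p-values is named there, nor whether libraries were pooled or averaged. The authors deposited FPKM as 1 value per gene and group, a log2 ratio and an unadjusted p-value per gene, per the file headers. With no value per library, the planned limma fit could not be fitted.

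Ratios were taken from both FPKM columns, and for every tested member they differed from the deposited log2 ratio by no more than 0.01. For 3 genes, none of them members, the deposited log2 ratio was 0 and the p 1 although FPKM differed, and these were not tested. The 1 further line held no content. Differences are log2(FPKM + 1) of new minus original, which understates the change of low genes. Benjamini-Hochberg adjustment of the deposited p-values ran over tested genes. Its steps and the scalings were also run on simulated data, with small p-values set in advance for the changed genes. That run checked the calculation alone and does not show how well either suits these data. Members with at least 1 FPKM in a group are named with both values. Of the pathway list, the 3 largest differences in each direction with at least 5 FPKM are named, and all other genes were chosen after their values were seen. Members and lists were chosen with earlier results of these data known. Other settings were no filter, a filter of 5 FPKM, a pseudocount of 0.1, scaling by a trimmed mean (each end losing 30% of ratios, 5% of levels), quantile normalization, equal FPKM sums, and the removal of rows that share a locus or name more than 1 gene. File starts count from 0, so 1 was added. Promoters come from RefSeq (GRCm38.p6), where 42 of 59 members had a window. Counting by strand is not stated, so overlapping genes on opposite strands cannot be told apart. Python 3.11.15, numpy 2.4.6, pandas 2.3.3 and matplotlib 3.10.9 were used.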

Additional observations from a re-analysis of the deposited data

How the results depend on the processing

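With a filter of 5 FPKM 10 members were tested, of which 4 were at least 2-fold higher and 5 lower, with a median of -0.26. Of all 5362 genes tested with that filter 1165 (21.7%) were at least 2-fold higher and 51.3% lower, with a median of -1.11. Without a filter the median was 0.04 for 40 members and -0.04 for all genes. Quantile normalization raised the number of genes at least 2-fold higher to 2870, which made up 54.9% of those past the fold against 36.3% as deposited, where 1793 were higher and 3149 lower. Equal FPKM sums gave 16 members at least 2-fold higher and 3 lower, and 6278 and 1354 of all genes, 82.3% of those past the fold being higher. With equal sums the differences of Bmp3, Smad4 and Smad7 turned to 1.00, 0.93 and 1.33, which follows from the scaling, since it adds 3.15 to each log2 ratio. The other counts of genes past the fold stayed within 1.5 times those reported. No gene passed an adjusted p of 0.05 under any filter tried, the smallest adjusted p being 0.316 with the filter of 5 FPKM and 0.824 without a filter, while at an unadjusted p under 0.05 there were 50 higher and 797 lower tested genes. No paired analysis was possible because the table holds 1 value per group, and leaving out single libraries was not possible for the same reason. Depth is unknown, so a level near 0 may reflect few reads.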

Other observations

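In all, 9 rows of the family share their locus with another gene, and reads of such genes may be divided between rows. Gdf1, a ligand known to be made from a transcript shared with Cers1, stood at 0.977 FPKM in new and 0.0846 FPKM in original hair cells. Cers1, a ceramide synthase gene at the same locus, stood at 0.698 FPKM in new and 439 FPKM in original hair cells, with p = 1 in the authors' deposited table. Orc4, which shares the locus of Acvr2a, stood at 5.88 and 4.43 FPKM in new and original hair cells, and Oxct2b, which shares that of Bmp8b, at 0.220 and 1.62 FPKM. Bmp8b itself stood at 0.121 FPKM in new and 0.751 FPKM in original hair cells.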
